A study of Saccharomyces cerevisiae with 30 samples.

Results

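The ribosomal proteins of the cytosol are the protein parts of the ribosomes that translate nuclear messages. In the table of transcript levels they are represented here by 60 genes of 7127 features, chosen by name: 30 RPL genes, which encode proteins of the large ribosomal subunit, and 30 RPS genes, which encode proteins of the small subunit. The other 77 cytosolic ribosomal protein genes in the table were used only for comparison. The 30 libraries come from 1 culture of Saccharomyces cerevisiae of the BF264-15D background. The strain is MATa bar1: it lacks a protease that breaks down alpha-factor, the mating pheromone that stops such cells before a new cycle starts. All 30 samples share that strain, growth at 38.5°C in rich medium with dextrose, and an arrest of 150 min in alpha-factor, at 40 ng/ml by the labels, whereas the study's methods give a far higher concentration. One mRNA library was made every 10 min from 0 to 290 min after release, so each group is 1 time point with 1 sample, and no comparison below has a test or a p-value.

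Making ribosomes is one of the largest tasks of a growing yeast cell. The ribosomal protein genes are transcribed together, mainly through Rap1, Fhl1, Ifh1 and Sfp1, under control of the TOR and protein kinase A pathways. Their messages are known to drop when yeast meets heat or starvation and to return as the cells adapt. Many of the genes exist as A and B copies left by an ancient genome duplication, and many carry an intron, which is uncommon in this species.

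Several limits apply to all values. Levels are in TPM (transcripts in each 1000000), a share of a fixed total in each library. The number of reads cannot be read from such values, so the depth of each library is unknown, and a lower share of abundant transcripts raises all other values. The culture is 1 sample followed over time, so time points are not replicates, and neighbouring points are not independent. In a bulk sample, fewer cells of a type and less RNA per cell cannot be told apart. The study calls a time point with a transcriptome-wide shift a STRIPE. A rewritten version of its detection function, run on these data, called 0, 10, 20, 100, 140 and 150 min. The study lists the same 6 from its own detector. The rewritten version was checked against that list, so its calls are not independent of it. These 6 time points are named wherever a result rests on them. All 60 members were above 100 TPM at every time point, so each passed the minimum of 1 TPM on the mean that left 6369 features as the background.

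Promoter sequences of members that moved in different directions are printed here to show that the Rap1 match is shared by genes with unlike values. They were read from the R64 genome, the build named in the labels, 5′ to 3′ on the strand of the gene, with the match to the Rap1 letters (CACCC followed, 3 bases on, by CA, on either strand) in capitals. RPS16B (YDL083C) and RPS2 (YGL123W) were among the members that were lowest after release relative to the first 3 time points, RPS9A (YPL081W) was the highest, and RPS16A (YMR143W) is the paralog of RPS16B. The RPS16B stretch lies at chrIV:308123-308172 on the minus strand, the RPS16A stretch at chrXIII:551510-551649 on the plus strand, the RPS2 stretch at chrVII:277187-277236 on the plus strand and the RPS9A stretch at chrXVI:404687-404736 on the plus strand.
RPS16B: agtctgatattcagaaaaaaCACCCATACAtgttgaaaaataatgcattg
RPS16A: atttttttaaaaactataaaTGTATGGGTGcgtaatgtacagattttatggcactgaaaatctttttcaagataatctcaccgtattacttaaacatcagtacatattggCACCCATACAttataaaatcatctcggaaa
RPS2: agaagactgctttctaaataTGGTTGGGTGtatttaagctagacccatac
RPS9A: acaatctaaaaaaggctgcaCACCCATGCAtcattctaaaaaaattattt

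Of the 60 members, 21 held a Rap1 match in the 500 bases before the start codon, against 4.28% of all 6002 promoters of that length. RPS16A and RPL13B were the 2 members with 2 matches or more. They are neighbours transcribed away from each other, and their matches are the same sites, counted for both genes. RPS16B and RPL13A share their match in the same way, so the 21 are genes and not separate sites. The match nearest the start codon began between 195 and 474 bases before it, with a median of 308. The median difference between 30-50 and 0-20 min, on the log2(TPM + 1) scale, was -0.33 for the 21 members with a match and -0.32 for the 39 without one. The letters GACGCAAA, associated with Fhl1, were found before 4 members and in 2.28% of all promoters. The letters GATGAG, known as PAC and found before many ribosome biogenesis genes, occurred before 15 members and 28.2% of all promoters, and AAAATTTT, known as RRPE, before 7 members and 12.4% of all promoters. A match is a run of letters and was not tested as a binding site.

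The summed level of the members was highest at the start of the series and lowest at 40 min. The 60 genes together held 148464, 137507 and 122696 TPM at 0, 10 and 20 min. The sum was 108351, 106665 and 113812 TPM at 30, 40 and 50 min, and 119823 TPM by 60 min. From 60 to 290 min the sum stayed between 113848 TPM, at 100 min, and 127091 TPM, at 290 min, with a mean of 121663 ± 3321 (SD over 24 time points). The summed level therefore moved mostly in the first hour. As a share of all TPM, this was 10.7% at 40 min, against 14.8% at 0 min, a ratio of 0.718, and 12.7% at 290 min. The other cytosolic ribosomal protein genes had a similar ratio of 0.707 between 40 and 0 min. With all ribosomal protein genes counted, the share was 29.2% at 40 min, against 41.1% at 0 min. 0 min is called a STRIPE, whereas 40 min is not. Over the 30 time points the coefficient of variation (CV) of the sum was 6.25%, and over the 24 time points not called it was 4.31%.

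**Figure D1:**
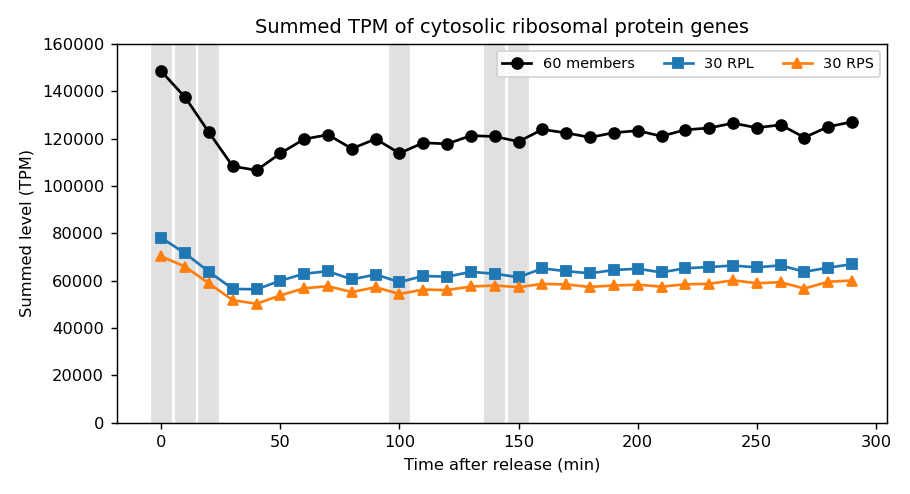
Summed level in TPM (vertical axis) of the 60 members, the 30 RPL and the 30 RPS genes at each time point in min (horizontal axis), 1 library each. Grey bands mark the 6 time points called STRIPEs. The sum is 148464 TPM at 0 min and 106665 TPM at 40 min, and lies between 113848 and 127091 TPM from 60 min on.

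The large and small subunit genes kept nearly the same proportion. The RPL members summed to 56376 TPM at 40 min, against 78166 TPM at 0 min, and the RPS members to 50289 TPM at 40 min, against 70299 TPM at 0 min. The ratio of RPL to RPS sums averaged 1.10 ± 0.0128 (SD over 30 time points), and ranged between 1.07 at 150 min and 1.12 at 270 min. Both sums were therefore lower by about the same proportion at 40 min. The 24 time points not called had a range of 1.092 to 1.12. The STRIPEs at 10, 20, 140 and 150 min lay below that range, at 1.085, 1.084, 1.086 and 1.073. Those at 0 and 100 min lay within it, at 1.11 and 1.092.

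The large subunit genes RPL28, RPL10 and RPL3 and the small subunit genes RPS14A and RPS12 were among the most abundant members. RPL28 (YGL103W, chromosome VII, 310967 to 311927, 1 intron), known for variants that resist cycloheximide, had the highest mean, 5929 TPM, with 6576 TPM at 0 min, 4841 at 40 min and 6499 at 290 min. RPL10 (YLR075W, chromosome XII, 282927 to 283592, no intron), whose protein joins the large subunit late in its assembly, averaged 5312 TPM and had 6636 TPM at 0 min, 4763 at 40 min and 5626 at 290 min. Both genes were lowest at 40 min. RPL3 (YOR063W, chromosome XV, 444686 to 445849, no intron), whose protein reaches into the peptidyl transferase centre, averaged 3837 TPM and took another course, with 3964 TPM at 0 min, 3742 at 40 min and 4086 at 290 min. Of the small subunit genes, RPS14A averaged 3435 TPM and RPS12 3050 TPM. At the other end, RPS9A averaged 153 TPM and RPL7B 186 TPM, both the minor copy of a pair.

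Most members shared this time course. Their highest level was at 0 min for 48 members and at 10 min for 3, and their lowest at 30 or 40 min for 40 members. For 6 members the lowest level was that of 100 min, for 4 that of 20 min and for 4 that of 270 min. At 40 min 59 of 60 members were below their own level at 0 min, with a median ratio of 0.705 and a range of 0.471 to 1.17. By 290 min 58 members were above their level at 40 min, while 52 were still below that at 0 min. The highest level of a member was 1.22 to 2.73 times its lowest, and 58 members varied by less than 2-fold. The median CV over time was 8.26% among members, against 15.6% among all 6369 features and 12.2% among the 974 features above 100 TPM outside the cytosolic ribosomal proteins. RPL7A had the lowest CV, 3.90%, and RPL7B, its paralog, the highest, 16.7%. These CVs depend on the TPM scale. With the TPM divided by factors that take out a shift of the typical gene, the members' median CV was 17.5%. It was not compared with other features on that scale.

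**Figure D2:**
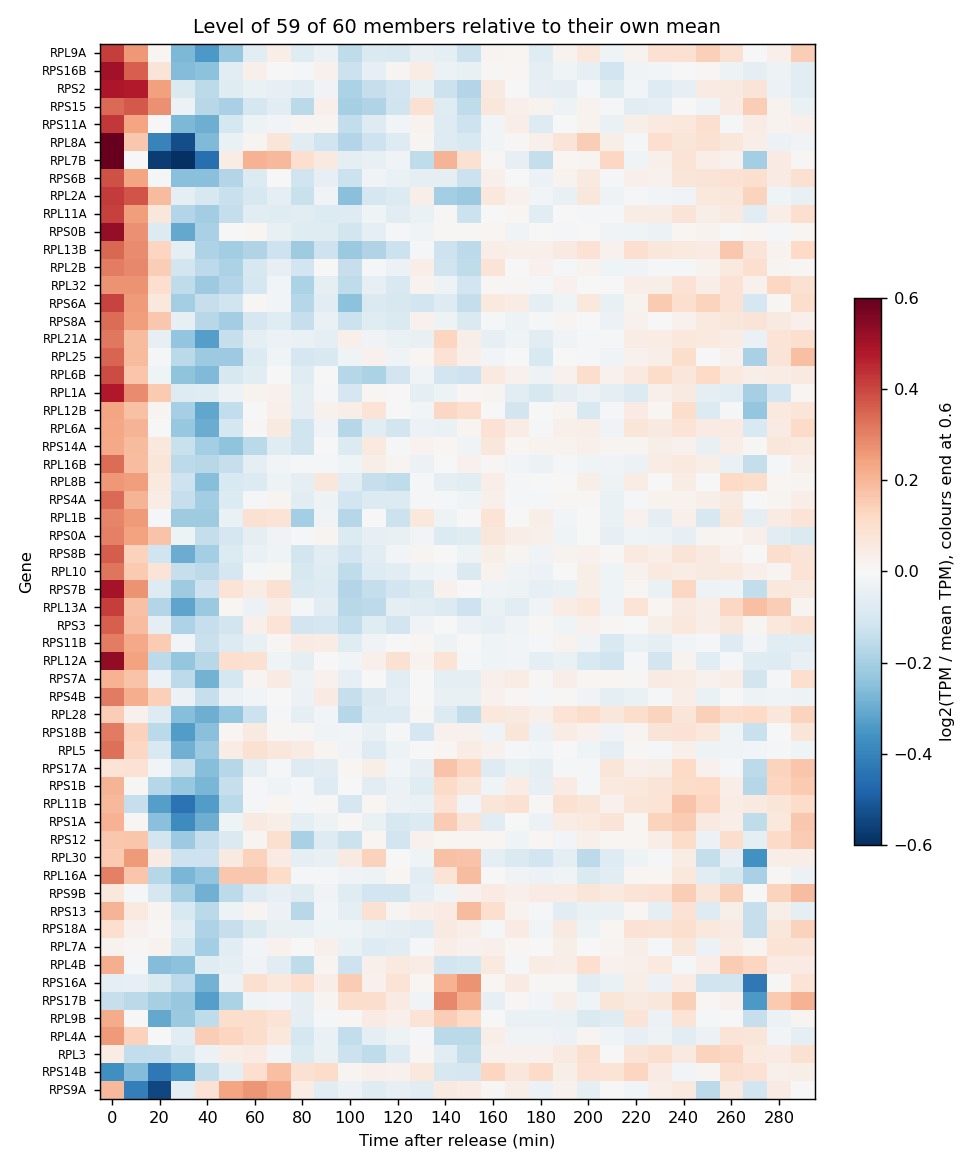
Each row is 1 of 59 of the 60 members and each column a time point in min; colour is log2 of the TPM over the gene's own mean, red above and blue below, with colours ending at 0.6. Rows run from the member with the lowest change between 0-20 and 30-50 min (top) to RPS9A, with the highest (bottom). Most rows are red at 0 min and blue at 30 and 40 min.

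Leaving the pheromone arrest, nearly all members were lower at 30-50 min than at 0-20 min, while most of the transcriptome was higher. Of 60 members, 57 were lower and 3 higher, with a median difference of -0.32 on the log2(TPM + 1) scale, against a median of 0.39 over all 6369 features, of which 12.7% were lower. None of the members reached a difference of 1.5-fold, the size used for a call, against 27.4% of all features in either direction. At 1.2-fold, a size chosen after the data were seen, 41 members were lower, against 5.39% of all features, and 1 member was higher, against 66.8% of all features. For 37 members all levels at 30, 40 and 50 min lay below all levels at 0, 10 and 20 min, which was the case for 3.42% of all features. No member had the opposite separation, which 51.9% of all features had. 29 of 30 RPL members and 28 of 30 RPS members were lower.

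The 3 time points of the 0-20 min window are all called STRIPEs. The study's visual inspection did not list them. Its authors left them out of the interpolation, since they suspected that release from synchronization could give them a biological origin. Set against 10 and 20 min, without 0 min, 54 members were lower at 30-50 min, with a median of -0.25, where 14% of all features were lower, with a median of 0.37. Set against 20 min alone, 48 members were lower, with a median of -0.16, where 20.9% of all features were lower, with a median of 0.22. Set against 160-200 min, a window with no STRIPE, 57 members were lower at 30-50 min, with a median of -0.17, where 28.8% of all features were lower, with a median of 0.12. These 3 windows were added after the data were seen. When the TPM were divided by median-of-ratios factors, which take out a shift of the typical gene, the median became -0.75 and 51 members passed 1.5-fold, all of them lower, where 6.97% of all features were lower and 5.06% higher by that much, with a median of -0.01.

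RPL9A, RPS16B and RPS2 had the lowest differences. RPL9A (YGL147C, chromosome VII, 227754 to 228329), a large subunit gene without intron, had 1686, 1601 and 1737 TPM at 30, 40 and 50 min, against 2713, 2439 and 2049.6 TPM at 0, 10 and 20 min, a difference of -0.51. RPS16B (chromosome IV, 306926 to 307789, 1 intron) had 1849.6, 1868 and 2119 TPM at 30, 40 and 50 min, against 3149, 2848 and 2342 TPM at 0, 10 and 20 min, also -0.51. RPS2 (chromosome VII, 277617 to 278381, no intron), a small subunit gene whose protein lies by the entry of the mRNA channel, had 2356, 2246 and 2379 TPM at 30, 40 and 50 min, against 3496, 3477 and 2963 TPM at 0, 10 and 20 min, again -0.51. In each of these genes the 2 windows did not overlap.

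RPS9A, RPS14B and RPL3 were the 3 members that were higher at 30-50 min. RPS9A (chromosome XVI, 404950 to 406044, 1 intron), the minor copy of a small subunit gene pair, had 148, 163 and 181 TPM at 30, 40 and 50 min, against 176, 115 and 105 TPM at 0, 10 and 20 min, a difference of 0.34. Its 0 min value lay inside the range of the later window, and its 10 and 20 min values below it. RPS14B (YJL191W, chromosome X, 73787 to 74611, 1 intron), whose splicing is known to be inhibited by the Rps14 protein, had 944, 1087 and 1152 TPM at 30, 40 and 50 min, against 929, 1002 and 891 TPM at 0, 10 and 20 min, a difference of 0.17. The windows overlapped, as they did for RPL3, with 3585, 3742 and 3929 TPM at 30, 40 and 50 min, against 3964, 3463 and 3473 TPM at 0, 10 and 20 min and a difference of 0.05. With the median-of-ratios factors all 60 members were lower, these 3 included.

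**Figure D3:**
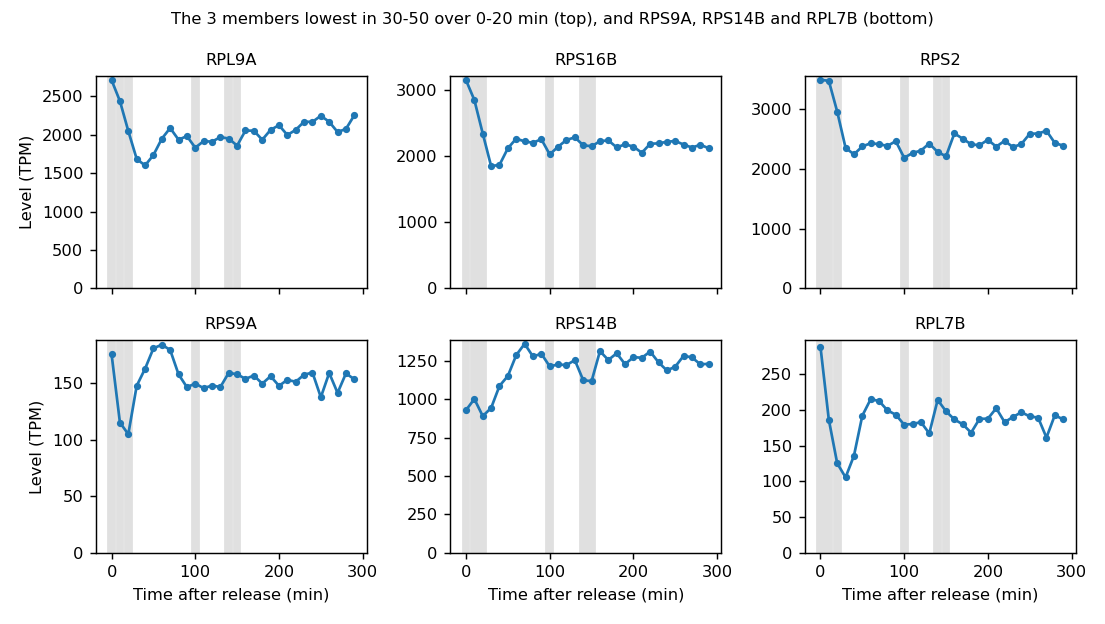
Level in TPM (vertical axes, from 0) of 6 members at each time point in min (horizontal axes), 1 library each; grey bands mark the 6 STRIPEs. RPL9A, RPS16B and RPS2 are lower at 30-50 than at 0-20 min, RPS9A is lowest at 20 min, RPS14B is highest at 70 min, and RPL7B is lowest at 30 min.

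Genes that make ribosomes or control their production moved apart from the members in this comparison, in which 5545 of all 6369 features were higher, 1651 by 1.5-fold. Of 40 ribosome biogenesis and RNA polymerase I genes, 36 were higher at 30-50 min, 6 by 1.5-fold, with a median of 0.39. Their summed level was 4906, 2912 and 2809 TPM at 0, 10 and 20 min. At 30, 40 and 50 min it was 3515, 4074 and 4311 TPM. Among these time points the sum was highest at 0 min, as the members' sum was, and lowest at 20 min, both called STRIPEs. UTP10, a factor for processing small subunit rRNA, had the highest difference, 0.95, and GAR1, a small nucleolar ribonucleoprotein subunit, the lowest, -0.20. Of 15 regulators of ribosomal protein genes 13 were higher, 4 by 1.5-fold, with a median of 0.40, and FHL1 was the highest at 0.80, while HMO1, a high-mobility-group protein bound at many of these promoters, was the lowest at -0.14. Mitochondrial ribosomal protein genes were higher in 37 of 38 cases, with a median of 0.49. The 29 translation factors tested had a median of 0.07. The biogenesis and regulator medians thus lay close to that of all features, 0.39. The other 75 tested cytosolic ribosomal protein genes moved as the members did, with 71 lower and a median of -0.35. RPL41A and RPL41B, the remaining 2, are listed at 0 TPM at all time points.

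Landmark genes of the culture were read beside the members. Of all 6369 features, 5545 were higher at 30-50 min, 1651 of them by 1.5-fold, and 807 were lower, 96 by 1.5-fold. Heat shock and stress genes were higher at 30-50 min in 26 of 27 cases, 16 of them by 1.5-fold, with a median of 0.81. Their summed level was 18828 TPM at 30 min, against 3792 TPM at 0 min, so they moved while the members' sum was going the other way. The 18 pheromone-induced genes went both ways, with 11 lower, 6 of them by 1.5-fold, and 7 higher, none by 1.5-fold, and a median of -0.09. PRM3 was the lowest at -1.58 and FAR1, an inhibitor of the cyclin-dependent kinase, the highest at 0.56. The 18 genes summed to 1932 TPM at 30 min, against 5311 TPM at 0 min. Release from pheromone, the rise of heat shock genes and the first 3 STRIPE calls fall in the first 30 min, and their parts in the members' values cannot be told apart in this design.

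Most members were a little higher at 60-80 min than at 30-50 min, in the first cycle after release. Of 60 members 58 were higher, against 48.2% of all features, with a median difference of 0.13, against -0.01 over all features. None passed 1.5-fold, against 4.24% of all features. No time point of this comparison is called a STRIPE. All 30 RPS members were higher, and the 2 members that were lower were RPL4A, at -0.05, and RPL13B, at -0.02. RPL7B (YPL198W, chromosome XVI, 173152 to 174702, 2 introns) had the highest difference, 0.57, with 215, 212 and 199 TPM at 60, 70 and 80 min, against 106, 136 and 192 TPM at 30, 40 and 50 min. RPL11B (YGR085C), whose protein belongs to the central protuberance of the large subunit, followed with 0.31 and had 1805, 1832 and 1800.5 TPM at 60, 70 and 80 min, against 1335, 1437 and 1619.99 TPM at 30, 40 and 50 min. RPS14B also had 0.31, with 1288, 1362 and 1279 TPM at 60, 70 and 80 min, against 944, 1087 and 1152 TPM at 30, 40 and 50 min. In all 3 genes, named because their differences were the highest, the windows did not overlap, a trait not counted over all features. RPL4A, a gene of the peptide exit tunnel, had 3035, 2947 and 2626 TPM at 60, 70 and 80 min, against 2702, 3127 and 3083 TPM at 30, 40 and 50 min, and these windows did. Over the same windows all 40 ribosome biogenesis genes were lower, with a median of -0.16, where 3290 of all 6369 features were lower.

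In the next window the members changed little. At 110-130 min, against 60-80 min, 36 members were lower and 24 higher, with a median of -0.01, against -0.13 over all features, of which 73.5% were lower. None passed 1.5-fold, against 5.09% of all features. RPL7B had the lowest difference, -0.24, with 180.2, 183 and 167 TPM at 110, 120 and 130 min, against 215, 212 and 199 TPM at 60, 70 and 80 min. RPS9A followed with -0.24 and RPS7B with -0.13. The highest were RPS14A, at 0.14, RPL4B, at 0.12, and RPS13, at 0.11. RPS14A had 3578, 3404 and 3481 TPM at 110, 120 and 130 min, against 3073, 3271 and 3162 TPM at 60, 70 and 80 min. The sign of the median depended on the scaling: with the median-of-ratios factors it was 0.12.

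At the STRIPEs of 140 and 150 min the members did not share the upward shift of the transcriptome. Against the flanking 130 and 160 min, 34 members were lower and 26 higher, with a median of -0.04, against 0.25 over all features, of which 17.8% were lower. None passed 1.5-fold, against 8.26% of all features. The members split in 2 directions: both STRIPE values lay below both flanking values for 28 members, against 9.39% of all features, and above both for 16 members, against 67.6% of all features. RPL2A (YFR031C-A), whose protein lies at the peptidyl transferase centre, was lowest, with 1811 and 1787 TPM at 140 and 150 min, against 2137 and 2185 TPM at 130 and 160 min, a difference of -0.26. RPS14B, at 1125 and 1118 TPM against 1255 and 1314 TPM, and RPL2B, at 3234 and 3166 TPM against 3619 and 3709 TPM, both had -0.20. RPS17B (YDR447C) was highest, with 1219 and 1161 TPM at 140 and 150 min, against 984 and 963 TPM at 130 and 160 min, a difference of 0.29. RPS16A had 0.23, with 1437 and 1495 TPM against 1253 and 1252 TPM, and RPL7B 0.22, with 214 and 198 TPM against 167 and 187 TPM. Each of these 6 genes was separated from its flanking time points. Of the related lists, ribosome biogenesis genes were higher in 36 of 40 cases, with a median of 0.34. Regulators were higher in 14 of 15, with a median of 0.28, where 5217 of all 6369 features were higher. The other 75 tested cytosolic ribosomal protein genes were split as the members were, with 44 lower, 31 higher and a median of -0.02.

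At 100 min, also called a STRIPE, most members were again lower than at the flanking time points. Against 90 and 110 min 47 members were lower and 13 higher, with a median of -0.06, against 0.16 over all features, of which 19.9% were lower. None passed 1.5-fold, against 5.15% of all features. RPL2A was again lowest, with 1755 TPM at 100 min, against 2057 and 1947 TPM at 90 and 110 min, a difference of -0.19. RPS6A, whose protein is phosphorylated in response to TOR signalling, had -0.17 and RPL1B, of the large subunit stalk that bears its name, -0.16. RPS16A was again among the highest, with 1380.1 TPM at 100 min, against 1275 and 1266 TPM at 90 and 110 min, a difference of 0.12. RPS1B and RPL21A had 0.07 each. The other 75 tested cytosolic ribosomal protein genes moved likewise, with 58 lower, 17 higher and a median of -0.06.

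Late in the series the members were nearly level. At 250-290 min, against 160-200 min, 39 members were higher, against 21.4% of all features, with a median of 0.02, against -0.08 over all features. None passed 1.5-fold, against 1.49% of all features. No time point of either window is called a STRIPE. RPL13A (YDL082W) had the highest difference, 0.10, with 708, 751, 780.2, 764 and 696 TPM at 250 to 290 min, against 671, 659, 679, 711 and 719 TPM at 160 to 200 min. RPL21A had 0.08 and RPL9A 0.08. RPS16A had the lowest, -0.12, with 1142, 1151, 922, 1249 and 1314 TPM at 250 to 290 min, against 1252, 1285, 1249, 1249.9 and 1185 TPM at 160 to 200 min. Its windows overlapped, and its lowest value was at 270 min. RPL16A had -0.05 and RPS13 -0.04.

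Single members differed at 270 min, a time point that is not called a STRIPE, in the opposite direction to 140 and 150 min. The detector's distance at 270 min was 0.251, under the limit of 0.3 for a call but the highest among time points not called. The median deviation of all features that vary from their own mean was -0.68 SD at 270 min. At 20 min, which is called, it was -0.57 SD. This was looked at after the values were seen. At 270 min, against 260 and 280 min, 43 of 60 members were lower, against 61.5% of all features, with a median of -0.05, against -0.06 over all features. The 3 lowest were RPS17B, with 786 TPM at 270 min, against 1017 and 1112 TPM at 260 and 280 min, RPS16A, with 922 TPM, against 1151 and 1249 TPM, and RPL30, whose protein is known to inhibit the splicing of its own message, with 1834 TPM, against 2287 and 2429 TPM. RPS17B and RPS16A were the 2 highest members at 140 and 150 min, and RPL30 had a difference of 0.21 there. RPL2A, the lowest member at 140 and 150 min, had 0.11 at 270 min.

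**Figure D4:**
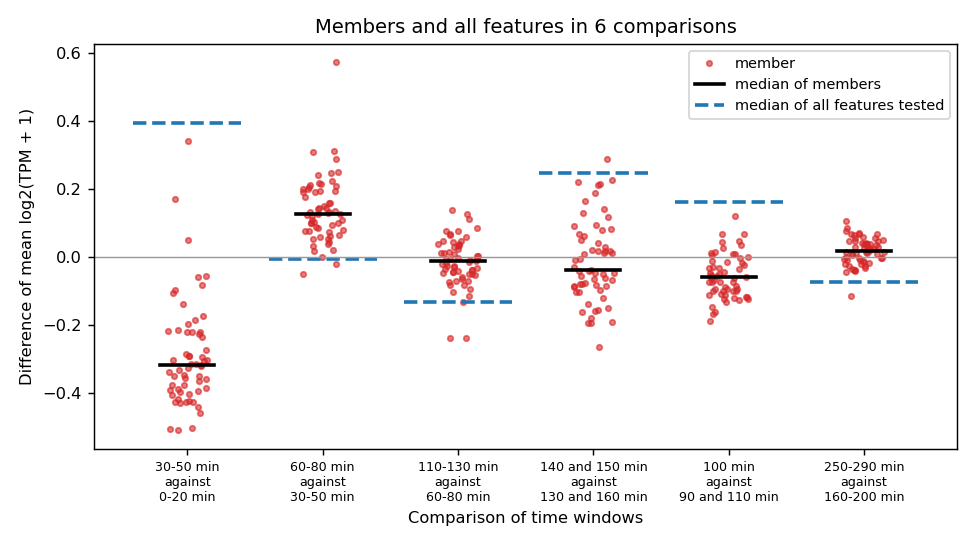
Difference of mean log2(TPM + 1) (vertical axis) of each of the 60 members (points) in 6 comparisons of time windows (horizontal axis), with the median of the members (black) and of all 6369 features (dashed). The median of the members lies below that of all features at 30-50, 140 and 150, and 100 min, and above it in the other 3 comparisons.

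The members varied together over time. Pearson's correlation between a member and the mean of the other members, over 30 time points of log2(TPM + 1), had a median of 0.75 and was above 0.5 for 53 of 60. The points share 1 culture and the fixed TPM total, so the correlations are given as a description. From 60 min on the median was 0.55, and 32 members were above 0.5. The 3 members least like the rest were RPS14B, with -0.10, RPS9A, with -0.01, and RPS16A, with 0.15. Without the 6 STRIPEs their values were 0.72, -0.03 and 0.43. The lowest member was then RPL4A, with -0.26, against 0.34 over all 30 time points. The other 75 cytosolic ribosomal protein genes had a median correlation of 0.77 with the mean of the members, against a median of -0.44 for the 5002 other features above 10 TPM. Of those 5002, the closest were ENO1, a glycolytic enzyme, with a correlation of 0.81, YEL053W-A with 0.79, YPL197C with 0.77, ASG7, a gene expressed in MATa cells and induced by pheromone, with 0.74, and LEU2, of leucine synthesis, with 0.73. ENO1 had 455 TPM at 40 min, against 1134 TPM at 0 min, and LEU2 19.4 TPM at 40 min, against 233 TPM at 0 min. Without the 6 STRIPEs, 0 min among them, the correlation of LEU2 was 0.12 and that of ENO1 0.61. YEL053W-A and YPL197C have no entry in the R64 annotation used here, so whether they share reads with a member could not be read from it; their correlations with the members RPL12A and RPL7B, whose systematic names are adjacent, were 0.80 and 0.83.

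Periodicity ranks placed the members over nearly the whole range. Ranked by Kendall's tau with cosines of 60 to 120 min, 13 of 60 members were in the top 1000, against 15.1% of the 6622 features that vary, and the median rank was 2590.5 for the members and 3311 for all of these features. RPL16A had the best rank, 146, followed by RPL7B at 208, RPL5 at 216 and RPS0A at 227. The count in the top 1000 was 1 with the median-of-ratios factors and 5 with periods of 50 to 150 min.

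**Figure D5:**
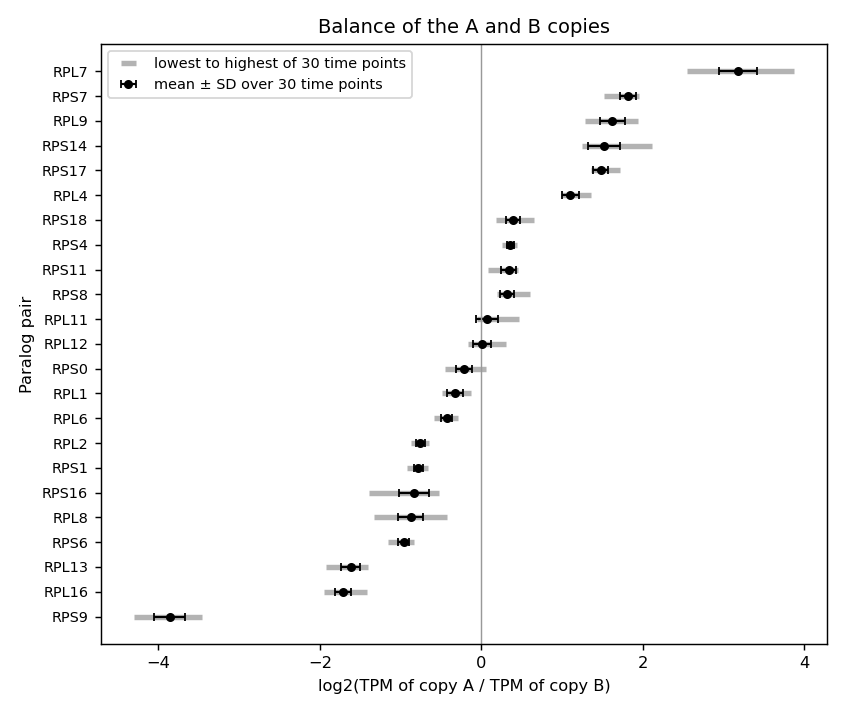
log2 ratio of the TPM of copy A over copy B (horizontal axis) for the 23 paralog pairs (vertical axis); points are the mean, thin bars the SD and grey bars the range over 30 time points. RPL7 lies farthest to the A side and RPS9 farthest to the B side, and the grey bars of RPL11, RPL12 and RPS0 cross 0.

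In most pairs the same copy was the higher one at all 30 time points. Among the members are 23 A and B pairs, of which 10 had the A copy higher at all 30 time points and 10 the B copy, while 3 (RPL11, RPL12 and RPS0) switched. The larger copy was at least 2-fold higher in 9 pairs. RPS9 was the most uneven, with RPS9B at 2216 TPM and RPS9A at 153 TPM on average, a ratio of 14.5. RPL7A averaged 1662 TPM and RPL7B 186 TPM, a ratio of 8.94, and RPS7A 1678 TPM and RPS7B 478 TPM, a ratio of 3.51. The most even were RPL12, RPL11 and RPS0, with ratios of 1.01, 1.05 and 1.16. The SD of the log2 ratio over time had a median of 0.10 and was lowest for RPS4, at 0.05.

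Over all 30 time points the balance of RPL7, RPS14 and RPS9 varied most, with SDs of 0.23, 0.20 and 0.19 on the log2 scale. Without the STRIPEs these SDs were 0.18, 0.10 and 0.17, and that of RPL9, 0.12, was above that of RPS14. The place of RPS14 thus rested on STRIPEs. Its log2 ratio of A to B was 2.11, 1.97 and 2.01 at 0, 10 and 20 min, all called STRIPEs. At later time points it was at most 1.73. The log2 ratio of RPL7A to RPL7B was 2.55 at 0 min and 3.88 at 30 min, its lowest and highest values. RPL7A had 1687, 1672, 1687, 1554, 1445 and 1586 TPM at 0, 10, 20, 30, 40 and 50 min, and RPL7B 288, 186, 125, 106, 136 and 192 TPM. The change of this ratio between 0 and 30 min thus lay mostly in the minor copy, relative to its own level and not in TPM. In RPS14 the log2 ratio of A to B was 2.11 at 0 min and 1.25 at 60 min, and the copies' levels correlated at -0.18 over time. RPS14A had 4022, 3917, 3593, 3133, 2986, 2908 and 3073 TPM from 0 to 60 min in steps of 10 min, and RPS14B 929, 1002, 891, 944, 1087, 1152 and 1288 TPM. The major copy was lower at 60 than at 0 min and the minor copy higher. RPS9A and RPS9B correlated at 0.03 and RPS16A and RPS16B at 0.10. In RPS16 the members differed after release: RPS16A had a difference of -0.10 at 30-50 min against 0-20 min, and RPS16B one of -0.51.

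How far copies can be told apart depends on their sequence, since RSEM divides reads that fit both. Coding sequences of a pair were 85.2% (RPS7) to 99.4% (RPL1) identical, and 11 of 23 pairs were at 95% or above, so the separate levels of these are uncertain. The stretches of 60 coding bases with the most differences are printed for both extremes, with the bases that differ in capitals: bases 1 to 60 of RPL1A (YPL220W) and RPL1B (YGL135W), and bases 52 to 111 of RPS7A (YOR096W) and RPS7B (YNL096C), counted from the start codon.
RPL1A: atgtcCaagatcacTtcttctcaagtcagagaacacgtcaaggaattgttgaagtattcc
RPL1B: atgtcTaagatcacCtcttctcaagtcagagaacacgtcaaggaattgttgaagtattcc
RPS7A: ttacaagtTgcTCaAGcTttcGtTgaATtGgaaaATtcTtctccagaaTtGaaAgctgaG
RPS7B: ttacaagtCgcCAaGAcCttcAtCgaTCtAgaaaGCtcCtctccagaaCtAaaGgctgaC
The RPL1 stretch holds 2 of the 4 differences in the coding sequence, and its longest run of identical bases is 315. The RPS7 stretch holds 18 of 85 differences. RPS9 and RPS14, with balances that varied, were 90.9% and 92.1% identical, RPS16 was 93.5% and RPL7 96.7%.

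Introns were common among the members. Of 60 members 35 (58.3%) had at least 1, against 5.30% of 6002 protein-coding genes, with a total intron length of 147 to 927 bases. The median difference between 30-50 and 0-20 min was -0.32 both with and without an intron. RPL7A and RPL7B were the only members that overlapped another annotated gene, the small nucleolar RNA genes SNR39 and SNR59, which lie in their introns on the same strand.

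The authors' table of corrected scores, which carries no TPM scale, kept this course in part. The median score of the members was -1.52 at 30 min and -1.49 at 40 min, against 1.56 at 0 min and 1.62 at 10 min, so the difference after release was present after that correction. At 140 and 150 min the median scores were -0.74 and -0.80, against 0.31 at 130 min and 0.63 at 160 min. In uncorrected Z-scores, each gene's deviation from its own mean in SD units, the medians of the members were -0.18 and -0.24 at 140 and 150 min, against -0.10 at 130 min and 0.12 at 160 min.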

How the data were processed

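RNA was extracted with acid phenol and chloroform, and libraries were made with the Illumina Stranded mRNA Prep kit and sequenced on a NovaSeq instrument, per the labels. The authors aligned reads with STAR, quantified them with RSEM on build R64 and deposited TPM for 7127 features; tool versions are not given in the sources used here. A further deposited table holds the authors' corrected scores (quantile normalized Z-scores) for 6622 features. TPM carry no depth, so counting intervals could not be computed, and whether counting used strand is not given in the sources used here.

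Windows were compared by the difference of mean log2(TPM + 1). A feature was called at 1.5-fold or more. The background was 6369 features averaging 1 TPM or more. No test was made, since each time point has 1 library. The members and the 8 gene lists were chosen with earlier results of these data known. Genes named were the 3 RPL and 3 RPS members with the highest means, the 3 highest and 3 lowest members of each comparison, the 3 largest, smallest and most variable paralog ratios, the 3 members correlating least with the rest, the 5 closest other features, and the highest and lowest gene of a list; others were named after their values were seen. 1 member is not reported here by name. Alternatives were other scalings (median-of-ratios factors, a fixed total of features other than ribosomal proteins, quantile normalization), a pseudocount of 0.1, no filter or a mean of 10 TPM or more, 2-fold calls, leaving out STRIPEs and other periods; 1.2-fold calls, other windows and 60 to 290 min alone were added after the data were seen. The study's detector was rewritten: each time point was compared with the nearest non-STRIPE of the 4 before it in reverse order, and called above a KS distance of 0.3 between Z-score distributions. The corrected scores equalled quantile normalized Z-scores computed here to within 1e-06. Gene positions, introns and sequences were read from the R64 RefSeq genome, in which 6047 features (84.8%) had an entry; its yeast genes begin at the start codon. Scripts used Python 3.11.15, numpy 2.4.6, pandas 2.3.3, scipy 1.17.1, Biopython 1.88 and matplotlib 3.10.9, and were tested on simulated data.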

Additional observations from a re-analysis of the deposited data

How the results depend on the processing

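No paired analysis was possible because 1 library stands for each time point, and for the same reason no replicate could be left out. For 30-50 min against 0-20 min the count of members past 1.5-fold, 0, became 51 with median-of-ratios factors, 11 with the total of features other than ribosomal proteins held fixed, 1 with quantile normalization, 1 against 20 min alone and 42 at 1.2-fold, where 12%, 15.6%, 8.95%, 12.2% and 72.2% of all features passed in either direction. The median, -0.32, became -0.75 with median-of-ratios factors, -0.49 with the fixed total and -0.16 against 20 min alone, so it kept its sign under each of these. For 60-80 min the count, 0, became 1 with the fixed total, 1 with quantile normalization and 4 at 1.2-fold, where 4.43%, 4.24% and 17.6% of all features passed. For 110-130 min the median, -0.01, changed sign to 0.12 with median-of-ratios factors and to 0.0026 with the fixed total. For 140 and 150 min the median, -0.04, became -0.29 with median-of-ratios factors and changed sign to 0.0072 with quantile normalization, and the count, 0, became 2 at 1.2-fold, which 51.1% of all features passed. For 100 min the median, -0.06, became -0.24 with median-of-ratios factors. For 250-290 min the median, 0.02, became 0.10 with median-of-ratios factors and changed sign to -0.0037 with quantile normalization. These scalings shift all genes of a time point together or by rank. The ratio of the members' sum between 40 and 0 min, 0.718, became 0.531 with median-of-ratios factors. The CV of the sum, 6.25%, became 4.31% without the 6 STRIPEs and 16.8% with median-of-ratios factors, and the median CV of a member, 8.26%, became 6.06% and 17.5%. The median correlation with the other members, 0.75, became 0.55 from 60 to 290 min. The members in the periodicity top 1000, 13, became 1 with median-of-ratios factors and 5 with periods of 50 to 150 min. The other 57 planned and 7 added values kept their direction, and counts stayed within 1.5 times and medians within 1 SD over the members. Of these, 5 medians moved by over 1.5 times: with quantile normalization those for 30-50, 110-130 and 100 min became -0.16, -0.03 and -0.02, with the fixed total that for 250-290 min became 0.05, and against 160-200 min that for 30-50 min became -0.17. With 1 culture and no depth, a difference smaller than the scatter between neighbouring time points cannot be read as a change.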

Other observations

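Differences of single members at 270 min and at 140 and 150 min, 2 comparisons that share no library, ran opposite to each other, which was looked at after the values were seen. Across the 60 members they correlated at -0.85, and across the other 75 cytosolic ribosomal protein genes at -0.80, against -0.23 across 5002 other features above 10 TPM. The differences at 100 min correlated with those at 140 and 150 min at 0.77 across members, and with those at 270 min at -0.63. These are correlations across genes, which are not independent replicates. The log2 coding length of a member correlated at -0.34 with its difference at 140 and 150 min and at 0.41 with that at 270 min; the part of message length, library quality or the culture in these values was not tested.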
